A study of Mus musculus with 13 samples.

Results

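Glomeruli from mice of the LCDD genotype were compared with glomeruli from wild-type (WT) mice. The comparison takes every library labelled LCDD and every library labelled WT, which makes 9 of the 13 RNA-sequencing libraries of the series. The 4 LCDD libraries carry the genotype label kFRA (LCDD), and each pooled 3 mice. The 5 WT libraries were 2 pools of 3 mice and 3 libraries from 1 mouse each. All mice were 6 months old, an age that the series description places early in glomerular scarring, and had a mixed background of C57/BL6, 129/SV and BALB/c. Glomeruli were purified with magnetic beads. The other 4 libraries, of the genotype DH-LMP2A, served to estimate the spread between libraries and are given beside LCDD where they bear on a result. Each sample title also opens with a code that has 6 digits: NS161202, NS170411, NS171018 and NS180319 for LCDD replicates 1 to 4, NS161202 and NS171018 for WT replicates 1 and 2, and NS180319 for the 3 single-mouse WT libraries, replicates 3 to 5. Code NS170411 has no WT library, and the labels do not say what the code stands for.

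Light chain deposition disease (LCDD) arises when a plasma cell clone secretes a monoclonal immunoglobulin light chain that deposits along the basement membranes of the kidney. The glomerulus, a tuft of capillaries that filters blood, is built of fenestrated endothelial cells, podocytes whose interlocking foot processes cover the outer side of the capillary wall, and mesangial cells that hold the tuft together. In the human disease the mesangium expands and can form nodules rich in extracellular matrix. As background that the labels do not spell out, kFRA mice express a human kappa light chain, and DH-LMP2A is a genotype in which B cells mature without an immunoglobulin heavy chain, so that plasma cells can release free light chains. The labels do not say whether LCDD mice also carry the DH-LMP2A allele. If they do, a difference from WT that this allele brings and one that the light chain brings cannot be told apart in LCDD against WT. The values of DH-LMP2A against WT and of LCDD against DH-LMP2A are therefore given beside the main ones, and the 3 comparisons share libraries.

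Total counts ran from 18604929 to 26544422 in LCDD and from 16687509 to 30587890 in WT. Libraries of the same genotype differed by more than counting noise in each of 16 pairs. The labels do not say that the pools came from separate cohorts, so p-values measure the spread between these libraries. No marker of the cell types checked was at 0 in all 9 libraries. The summed level of 5 proximal tubule markers, in CPM (counts scaled to the library total by the TMM method), ran from 201.9 to 755.8 in LCDD and from 27.9 to 1586 in WT, where the pool of code NS161202 was highest. The labels give no sex. The summed CPM of 4 Y-linked genes was 174.0, 21.1, 220.2 and 18.02 in LCDD replicates 1 to 4, was 27.0 in WT replicate 2 and was at most 0.0811 in the other 4 WT libraries. Ddx3y, one of them, had more than 3 counts in 4 of 4 LCDD pools and in 1 of 5 WT libraries, so that sex is unevenly spread over the genotypes. In DH-LMP2A it had more than 3 counts in 4 of 4 libraries, where the summed Y-linked CPM was 68.35 to 222.8. Xist, an X-linked gene higher with an inactive X, had 2574, 13548, 9 and 25354 counts in LCDD replicates 1 to 4 and 9018 to 41308 in WT.

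Of 46958 genes in the table, 16738 passed a filter on low counts and were tested with edgeR. A gene is called, and said to have risen or fallen, where the p-value adjusted by the Benjamini-Hochberg method over these genes was under 0.05. Every adjusted p below is of this kind, and every fold change is on the log2 scale. In LCDD glomeruli 308 genes were called (1.84% of those tested), of which 217 rose (1.3%) and 91 fell (0.544%). Adding the title code as a block raised the count to 536 (3.2%), with 343 rises (2.05%) and 193 falls (1.15%). Both fits called 278 genes, 30 were called only without the block and 258 only with it, and all 566 genes called in either had the same direction in both. Without the 3 single-mouse WT libraries 28 genes rose and 26 fell.

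**Figure D1:**
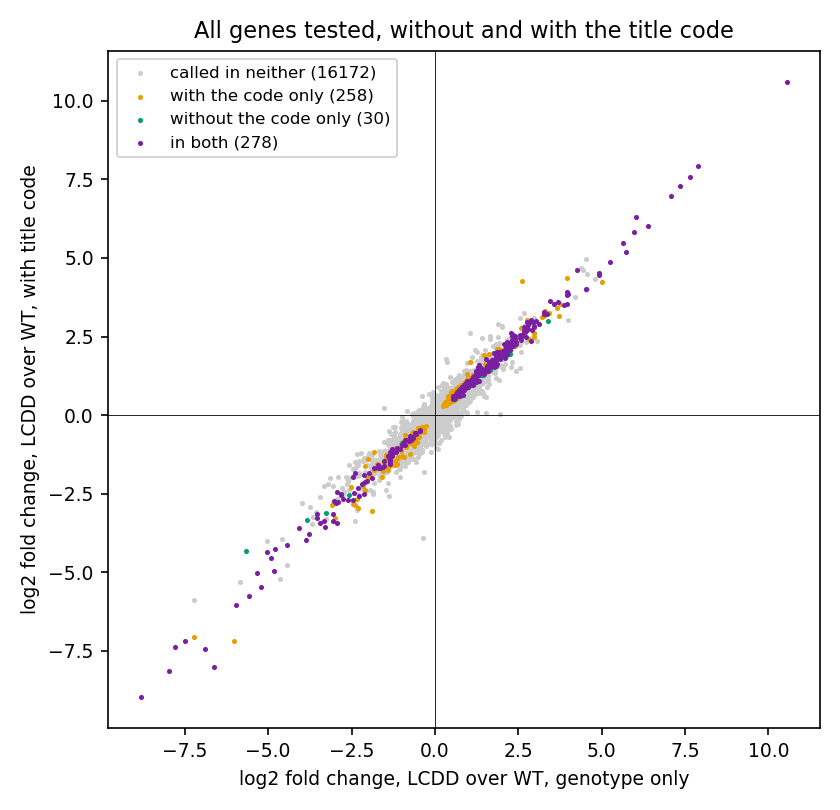
Log2 fold change of LCDD over WT for each of the 16738 genes tested, fitted with genotype only (x axis) and with the title code added as a block (y axis). Points are coloured by the fit in which they were called, and the 278 genes called in both, the 258 called only with the code and the 30 called only without it have the same sign on both axes.

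Genes of mitosis gave the highest count of rises among the 34 gene lists examined. Mitosis is the stage at which duplicated chromosomes are condensed, attached to the spindle by kinetochores and pulled apart, and most of the genes involved are transcribed late in the cell cycle. Of 82 tested members of a list of 85 such genes, 48 rose and 1 fell, against 1.3% and 0.544% of all genes, and 33 were not called. With the block, 49 rose and 0 fell, against 2.05% and 1.15% of all genes. The median log2 fold change of the 82 genes was 1.64, against 0.01 for all genes tested, and 79 of the values were above 0. In 65 of the 82 genes every LCDD library lay above every WT library, which was so for 2.97% of all genes, and in 0 every LCDD library lay below, against 1.63%.

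**Figure D2:**
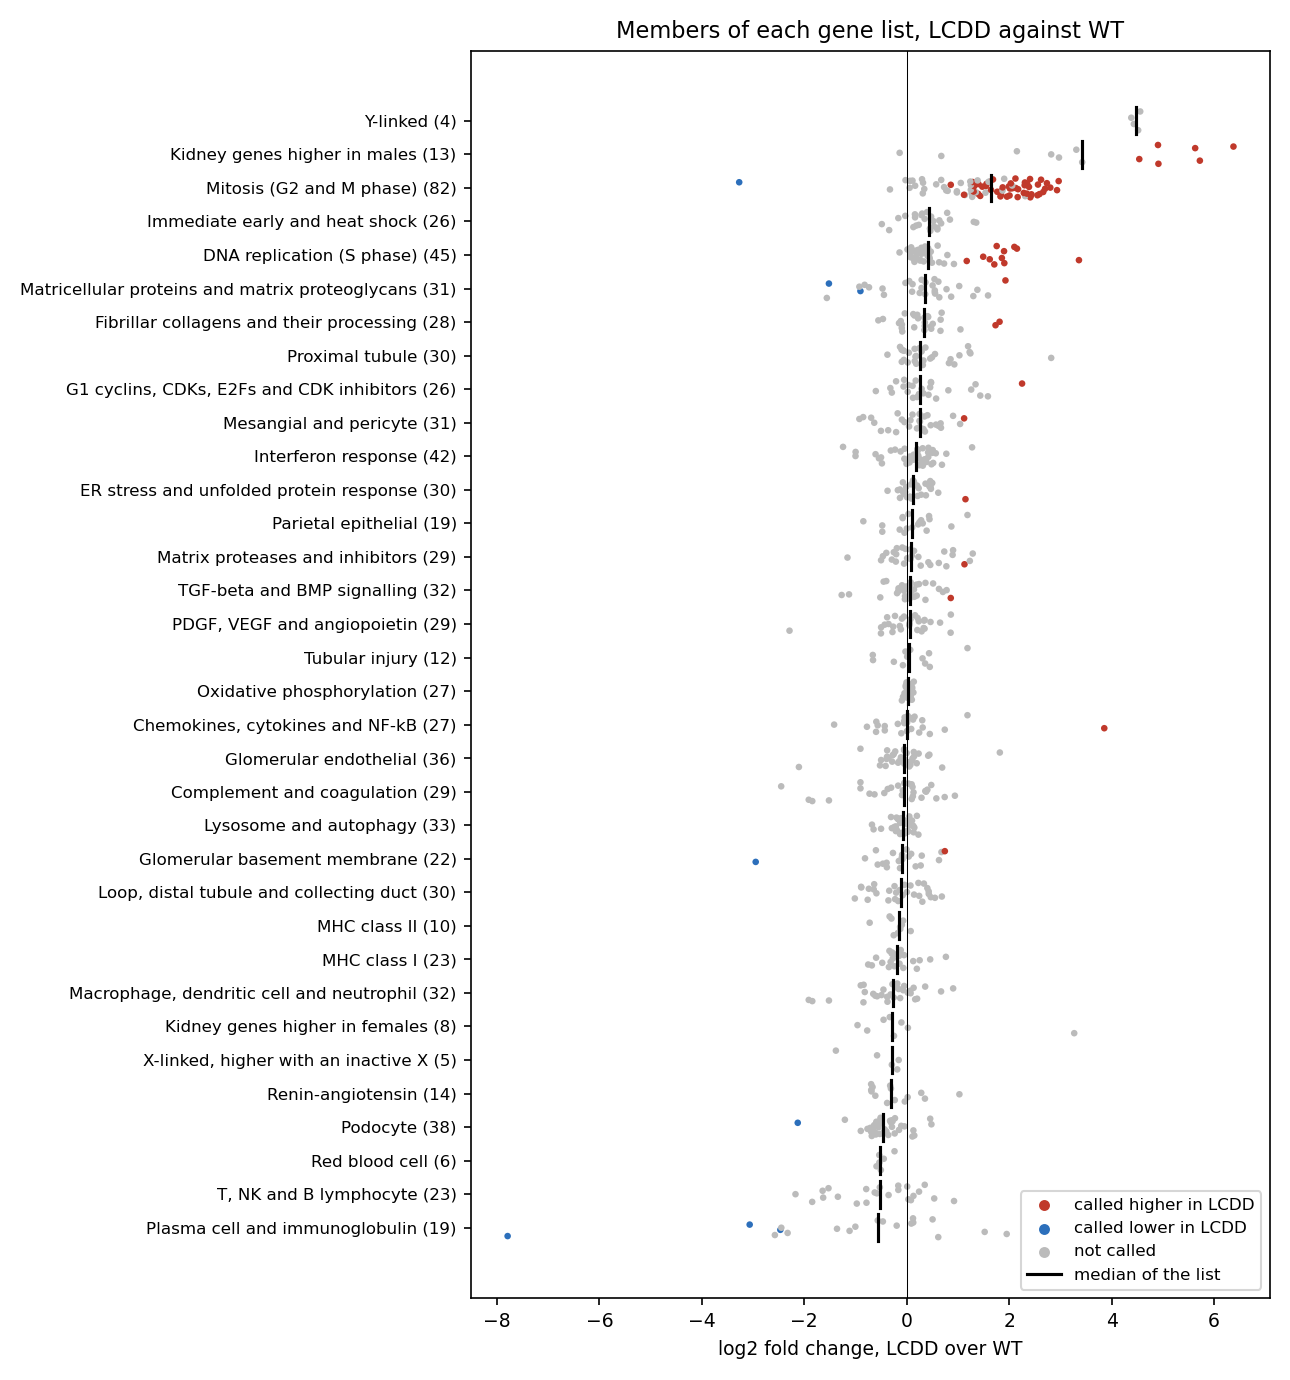
Log2 fold change of LCDD over WT for the tested members of each of the 34 gene lists, with the number tested in brackets and the median of the list as a black bar. Red points were called higher in LCDD, blue points were called lower and grey points were not called. The mitosis list holds 48 red points and 1 blue point, while the podocyte list lies mostly left of 0 with 1 blue point.

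The stretch of DNA just before the start of a gene carries much of its cell cycle timing. The CHR element (TTTGAA) and the CCAAT box are known from the promoters of many genes of the G2 and M phases. The promoters of the 6 called mitosis genes with the smallest p that have a single RefSeq promoter entry are shown here, so that these elements can be seen beside the genes whose values follow. Each run is the 250 bases before the annotated start, on the strand of the gene, from RefSeq on GRCm38.p6. Capitals mark CHR and CCAAT on either strand, so that TTCAAA and ATTGG are the same elements read on the other strand. The windows are chr9:122950831-122951080 (plus strand), chr11:99024190-99024439, chr11:102925125-102925374, chr7:135716380-135716629 and chr7:127042421-127042670 (minus strand), and chr1:139454523-139454772 (plus strand).
Kif15: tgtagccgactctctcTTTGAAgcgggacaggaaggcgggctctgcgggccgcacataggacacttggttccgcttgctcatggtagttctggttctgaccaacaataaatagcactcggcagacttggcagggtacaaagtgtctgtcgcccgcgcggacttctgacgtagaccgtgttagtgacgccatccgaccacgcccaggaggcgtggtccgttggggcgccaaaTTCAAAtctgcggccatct
Top2a: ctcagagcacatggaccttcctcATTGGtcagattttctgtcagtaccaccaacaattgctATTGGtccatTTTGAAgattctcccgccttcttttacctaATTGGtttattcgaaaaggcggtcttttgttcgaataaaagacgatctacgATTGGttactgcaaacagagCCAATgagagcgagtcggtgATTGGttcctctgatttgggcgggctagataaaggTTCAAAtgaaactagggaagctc
Kif18b: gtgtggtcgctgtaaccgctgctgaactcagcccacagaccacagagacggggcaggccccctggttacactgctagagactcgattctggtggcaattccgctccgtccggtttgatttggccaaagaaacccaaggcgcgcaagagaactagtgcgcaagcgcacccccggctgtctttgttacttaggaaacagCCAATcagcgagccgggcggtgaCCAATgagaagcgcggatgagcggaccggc
Mki67: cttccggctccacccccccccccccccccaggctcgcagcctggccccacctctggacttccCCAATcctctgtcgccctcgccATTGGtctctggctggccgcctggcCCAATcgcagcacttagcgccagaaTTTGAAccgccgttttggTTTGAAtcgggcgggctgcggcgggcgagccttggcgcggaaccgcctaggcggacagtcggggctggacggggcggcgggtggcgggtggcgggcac
Kif22: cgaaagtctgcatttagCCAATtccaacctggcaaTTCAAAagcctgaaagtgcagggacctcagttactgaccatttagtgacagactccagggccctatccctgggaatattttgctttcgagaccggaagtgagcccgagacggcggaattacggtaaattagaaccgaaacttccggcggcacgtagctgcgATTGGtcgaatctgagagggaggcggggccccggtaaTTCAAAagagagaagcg
Aspm: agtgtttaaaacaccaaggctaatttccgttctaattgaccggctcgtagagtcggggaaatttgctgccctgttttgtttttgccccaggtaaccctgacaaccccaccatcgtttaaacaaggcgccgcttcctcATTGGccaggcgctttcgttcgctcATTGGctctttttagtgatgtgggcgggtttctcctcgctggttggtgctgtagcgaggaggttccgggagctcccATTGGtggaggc
The Top2a window holds 2 CHR and 6 CCAAT matches, the Mki67 window 2 and 3, and the Kif22 window 2 and 2. Kif15 has 2 CHR matches and 0 CCAAT matches, and Kif18b and Aspm have no CHR match and 2 and 3 CCAAT matches. Of the 82 tested mitosis genes, 67 (81.7%) have a promoter in the table, and 23 of these (34.3%) hold a CHR match, against 11.0% of the promoters of all genes tested and 16.3% of all 27025 RefSeq promoters of this length. A CCAAT match occurs in 45 of the 67 (67.2%), against 36.1% and 34.5%. These counts describe letters in a window and say nothing of what binds there.

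Mki67, whose product coats mitotic chromosomes and marks dividing cells, stood at 35.8, 34.1, 28.9 and 23.4 CPM in LCDD replicates 1 to 4. In WT replicates 1 to 5 it stood at 4.59, 3.21, 5.61, 7.16 and 10.3 CPM, so every LCDD library lay above every WT library. The log2 fold change was 2.30 (SE 0.30, adjusted p = 0.00177), and 2.52 with the block (adjusted p = 0.00357). Top2a, the topoisomerase that untangles sister chromosomes, measured 43.7, 23.6, 15.9 and 16.6 CPM in LCDD and 4.01, 4.08, 3.16, 4.21 and 4.79 CPM in WT. Its rise was 2.62 (SE 0.31, adjusted p = 0.000775). The LCDD pool of code NS161202 was the highest for Top2a, and the WT libraries lay close together.

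Kinesins are motor proteins that move along spindle microtubules. Of the 12 kinesins in the mitosis list, set apart after their values were seen, 10 rose, while Kif18a had a value of 0.0577 (SE 0.41, adjusted p = 0.984) and Kif20b of 0.73 (SE 0.43, adjusted p = 0.585). Kif15, a spindle kinesin, reached 3.07, 2.07, 1.83 and 2.13 CPM in LCDD, against 0.647, 0.371, 0.481, 0.448 and 0.608 CPM in WT. The rise of Kif15 was 2.13 (SE 0.24, adjusted p = 0.000687), and 2.15 with the block (adjusted p = 0.00125). Kif18b, a kinesin that shortens spindle microtubules, rose by 2.80 (SE 0.36, adjusted p = 0.00166) from a WT mean of 0.3304 ± 0.0837 CPM (SD, n = 5). Kif22, which pushes chromosome arms outward, rose by 2.39 (SE 0.32, adjusted p = 0.00195), and Aspm, which acts at spindle poles, by 2.17 (SE 0.29, adjusted p = 0.00205). No LCDD library overlapped a WT library for any of these 4 genes.

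The kinases and cyclins that drive mitosis were not all called. Cdk1, the central mitotic kinase, measured 20.5, 9.11, 5.71 and 7.69 CPM in LCDD and 2.27, 2.04, 1.602, 2.01 and 2.64 CPM in WT, a rise of 2.35 (SE 0.36, adjusted p = 0.00526). Its partner Ccnb1 (cyclin B1) rose by 2.01 (SE 0.34, adjusted p = 0.00792), and Aurkb, the kinase that corrects faulty attachments, by 1.96 (SE 0.41, adjusted p = 0.0281). The call of Aurkb was lost without any 1 of LCDD replicate 1 or 2 or WT replicate 3, 4 or 5. Plk1, a further mitotic kinase, did not pass the test although its libraries did not overlap, with 3.95, 2.52, 2.32 and 2.52 CPM in LCDD and 1.36, 1.54, 1.001, 1.52 and 1.38 CPM in WT. Its log2 fold change was 1.06 (SE 0.26, adjusted p = 0.0594).

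Foxm1, the transcription factor that switches on many G2 and M genes, stood at 12.3, 10.2, 11.3 and 10.5 CPM in LCDD and at 2.36, 3.77, 4.36, 3.27 and 3.93 CPM in WT. The LCDD libraries were nearly level and all above WT. The rise was 1.65 (SE 0.19, adjusted p = 0.000698), and 1.64 with the block (adjusted p = 0.00393). In DH-LMP2A, Foxm1 had a mean of 6.35 ± 1.04 CPM (SD, n = 4), between the other groups, and neither LCDD against DH-LMP2A, at 0.80 (adjusted p = 0.0629), nor DH-LMP2A against WT, at 0.84 (adjusted p = 0.0728), passed the test.

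The single mitosis gene called lower was Pttg1 (securin), which holds sister chromosomes together until they separate. It was at 2.92, 3.802, 1.72 and 2.01 CPM in LCDD and at 1.55, 54.2, 21.5, 25.3 and 24.4 CPM in WT. WT replicate 1 was as low as LCDD, so the groups overlapped. The change of Pttg1 was -3.27 (SE 0.68, adjusted p = 0.0275) and was not called with the block (adjusted p = 0.0883), nor without any 1 of LCDD replicate 1, 2, 3 or 4 or WT replicate 3, 4 or 5. In DH-LMP2A against WT it was -4.28 (adjusted p = 0.0215).

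**Figure D3:**
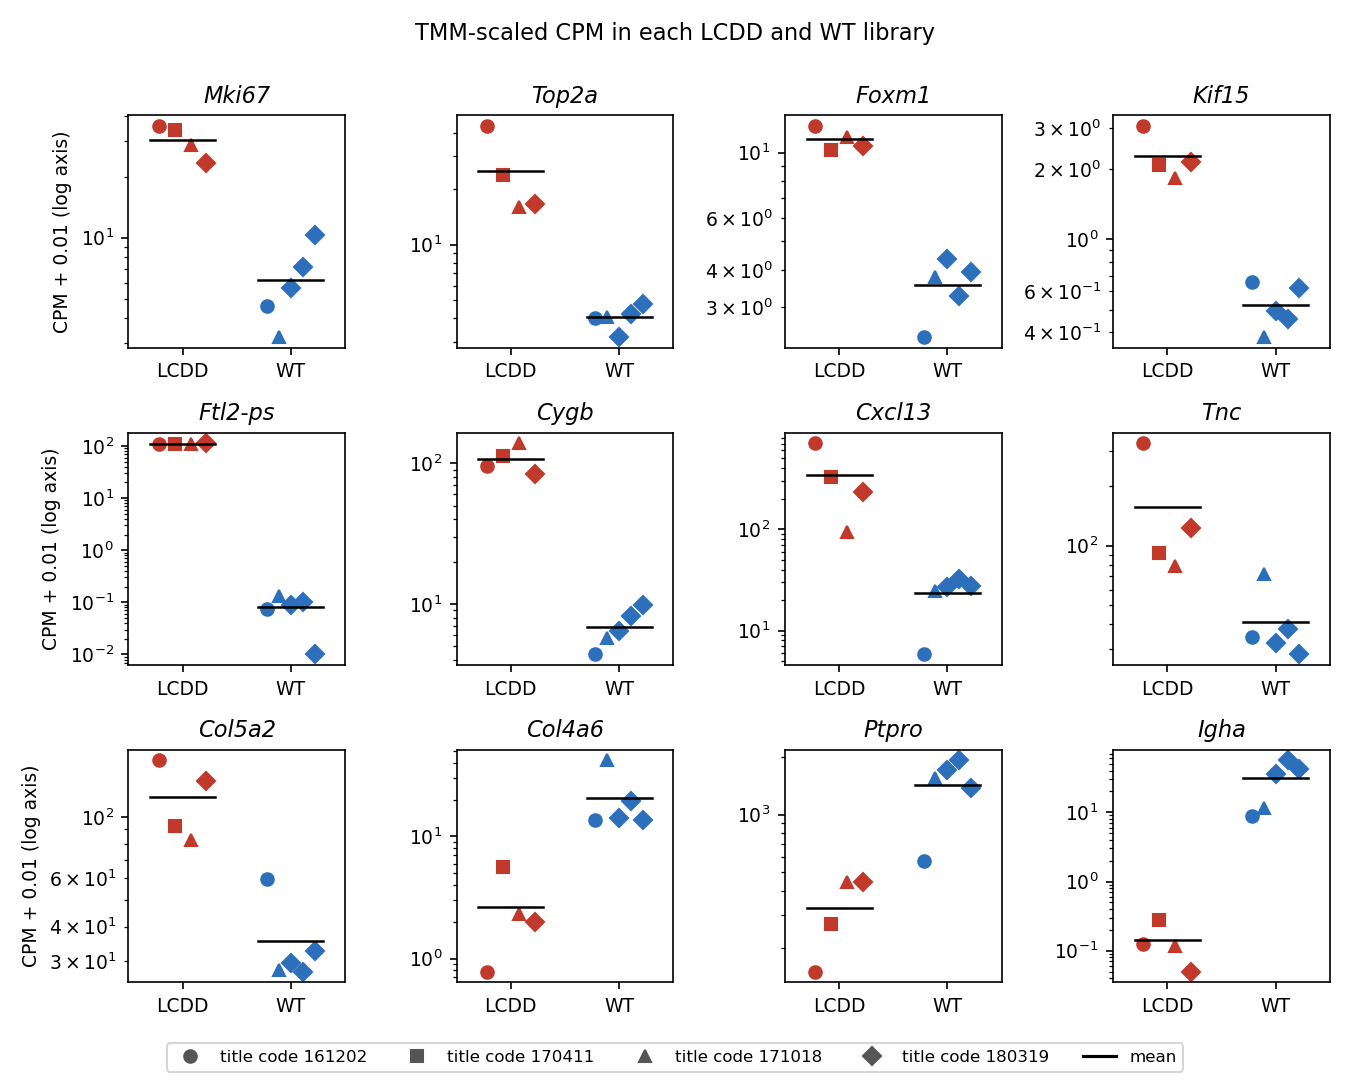
TMM-scaled CPM, plus 0.01, of 12 genes in each of the 4 LCDD (red) and 5 WT (blue) libraries on log axes, with the mean as a black line and the title code given by the shape of the point. Mki67, Top2a, Foxm1, Kif15, Ftl2-ps, Cygb, Cxcl13, Tnc and Col5a2 are higher in every LCDD library than in any WT library, and Col4a6, Ptpro and Igha are lower.

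Within each title code that holds both genotypes the mean log2 CPM of the mitosis list was higher in LCDD, by 2.11 under NS161202, 1.35 under NS171018 and 1.01 under NS180319. LCDD against DH-LMP2A gave 42 rises and 1 fall in the list, with a median of 1.59, where 334 genes (2% of those tested) were called in all. DH-LMP2A against WT had a median of 0.0004 over the list, where 105 genes (0.627%) were called in all.

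Y-linked RNA differed between the groups, and its values stand beside these counts. LCDD replicates 2 and 4 had less Y-linked RNA than WT replicate 2, and their mean log2 CPM of the mitosis list was 1.97 and 1.65, against 0.41 in WT replicate 2 and 0.47 to 0.83 in the other WT libraries. Over the list of kidney genes higher in males these LCDD replicates were at 3.71 and 3.13, against 0.55 in WT replicate 2. This contrast rests on 1 WT library, and sex and genotype cannot be told apart in it. With the 2 LCDD libraries highest in Y-linked transcripts left out, 12 mitosis genes rose and 0 fell. That fit had 58 rises and 19 falls in all. With the summed Y-linked CPM as a linear covariate 8 mitosis genes rose and 0 fell, of 44 rises and 16 falls in all. With the mean Y-linked log2 CPM as the covariate 0 rose and 0 fell, in a fit that called 23 genes in all. Without the 3 single-mouse WT libraries 5 mitosis genes rose and 0 fell, of 28 rises and 26 falls in all. The median log2 fold change of the list was 1.34, 1.52, 1.49 and 1.67 in these 4 fits, against 1.64 with all libraries and no covariate. With the linear covariate Mki67 had a value of 2.32 (adjusted p = 0.0179) and Top2a of 2.49 (adjusted p = 0.0145). Leaving out any 1 of the 9 libraries left 34 to 47 mitosis genes called higher, of 112 to 297 genes higher in all.

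**Figure D4:**
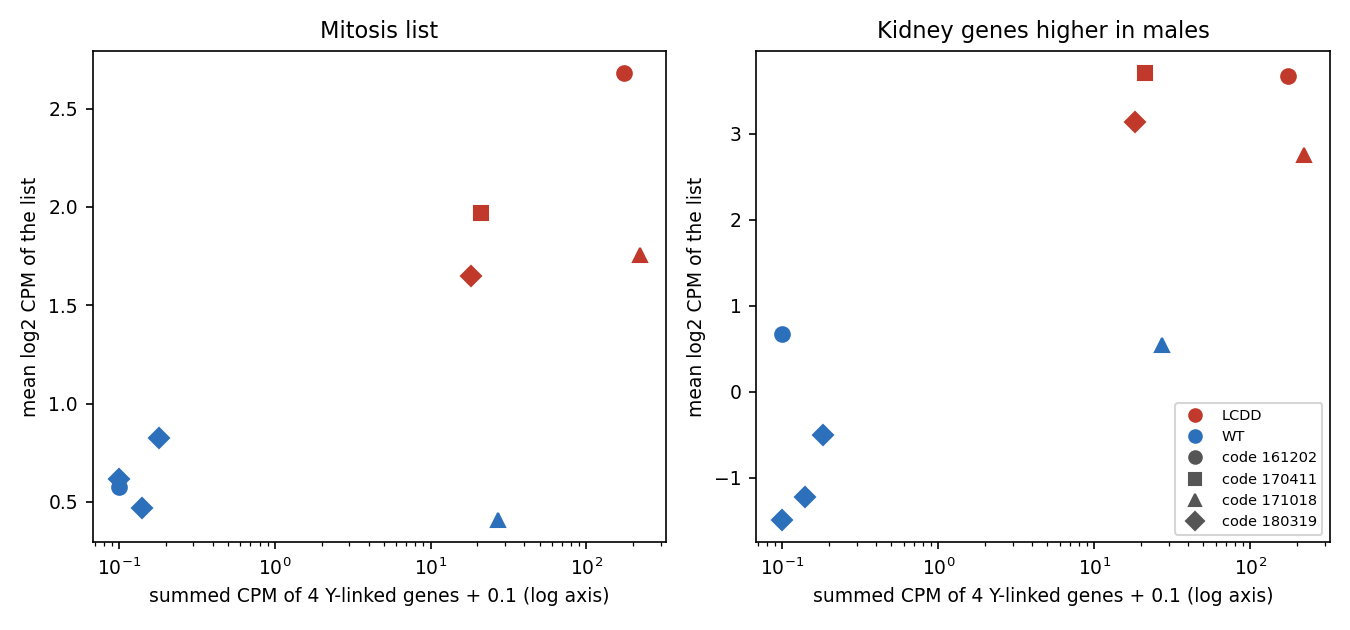
Mean log2 CPM of the mitosis list (left) and of the list of kidney genes higher in males (right) in each LCDD (red) and WT (blue) library, against the summed CPM of 4 Y-linked genes plus 0.1 on a log axis, with the title code given by the shape of the point. In the left panel WT replicate 2, at 27.0 CPM of Y-linked RNA, lies at 0.41, while LCDD replicates 2 and 4, at 21.1 and 18.02 CPM, lie at 1.97 and 1.65. In the right panel WT replicate 2 lies at 0.55 and LCDD replicates 2 and 4 lie at 3.71 and 3.13.

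DNA replication, the copying of the genome in S phase, was examined with a list of its own. Of 45 listed genes, all tested, 11 rose and 0 fell, against 1.3% and 0.544% of all genes (9 and 0 with the block, against 2.05% and 1.15%). In this list 44 of the values were above 0, against 8658 of the 16738 genes tested, with a median of 0.41. Dtl, the ubiquitin ligase adaptor that clears licensing factors in S phase, was at 3.49, 2.37, 1.72 and 1.499 CPM in LCDD and 0.388, 0.124, 0.2402, 0.0448 and 0.243 CPM in WT, without overlap. Its rise was 3.36 (SE 0.43, adjusted p = 0.00174). Rrm2, the ribonucleotide reductase subunit that limits the supply of DNA precursors, rose by 2.15 (SE 0.41, adjusted p = 0.0167), a call lost without WT replicate 3 or 5. Cdc6, which loads the replicative helicase, rose by 1.91 (SE 0.34, adjusted p = 0.0121) and Brca1, a DNA repair gene, by 1.71 (SE 0.25, adjusted p = 0.00414).

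The replication machinery included genes closer to WT. Pcna, the sliding clamp, was at 93.9, 90.4, 63.3 and 75.96 CPM in LCDD and 69.4, 64.9, 61.98, 70.3 and 66.1 CPM in WT, with overlap and a value of 0.28 (SE 0.11, adjusted p = 0.3103). Mcm5, a helicase subunit, had a value of 0.79 (SE 0.21, adjusted p = 0.0817). Mcm10, which helps to activate the helicase, rose by 1.49 (SE 0.25, adjusted p = 0.00774) and was at 3.17 ± 0.8999 CPM (SD, n = 4) in DH-LMP2A, against 3.14 ± 0.132 CPM (SD, n = 4) in LCDD. LCDD against DH-LMP2A for Mcm10 was -0.01 (adjusted p = 0.989). A CHR match occurs in 4 of the 37 replication promoters in the table (10.8%), against 11.0% of the promoters of all genes tested and 16.3% of all promoters. An E2F match (TTTCCCGC or TTTGGCGC, either strand) occurs in 7 (18.9%), against 2.41% and 1.35%. Among the 67 mitosis promoters an E2F match occurs in 5 (7.46%). A CCAAT match occurs in 22 of the 37 replication promoters (59.5%), against 36.1% and 34.5%, and in 67.2% of the mitosis promoters. The count of replication genes called was 6 or 7 when LCDD replicate 1 or 2, or WT replicate 3, 4 or 5, was left out. In those fits 112 to 146 genes rose in all. The count was 1 with LCDD replicates 1 and 3 left out, where 58 genes rose in all. It was 0 without the single-mouse libraries, where 28 rose.

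Among 26 tested cyclins, kinases, E2F factors and inhibitors of the G1 phase, which govern the decision to divide, 1 rose and 0 fell. The shares of all genes were 1.3% and 0.544%. With the block 2 rose and 0 fell, against 2.05% and 1.15%. E2f8, a repressor of E2F targets late in the cycle, rose by 2.25 (SE 0.43, adjusted p = 0.0166) from 0.2602 ± 0.0509 CPM (SD, n = 5) in WT to 1.27 ± 0.657 CPM (SD, n = 4) in LCDD. Its call was lost without any 1 of LCDD replicate 1 or 2 or WT replicate 3, 4 or 5. Ccnd1 (cyclin D1), which brings growth signals to the cycle, had a value of 0.58 (SE 0.34, adjusted p = 0.586). The inhibitors Cdkn1a (p21) and Cdkn1b (p27) had values of -0.29 (SE 0.39, adjusted p = 0.883) and 0.02 (SE 0.09, adjusted p = 0.976).

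Tead2 and Ankrd1 also rose, both named after their values were seen. Tead2, a DNA-binding partner of the Hippo effectors YAP and TAZ, was at 100.5, 149.9, 157.1 and 142.5 CPM in LCDD and 32.6, 37.4, 35.1, 31.3 and 37.2 CPM in WT. The lowest LCDD library lay far above the highest WT library. The change was 1.99 (SE 0.13, adjusted p = 4.3e-06), and 1.96 with the block (adjusted p = 9.49e-05), and the call held under each alternative run. Tead2 was also higher in LCDD than in DH-LMP2A, by 1.94 (adjusted p = 1.46e-05). Ankrd1, known as a target of YAP and TAZ, was at 43.9, 19.4, 17.3 and 37.4 CPM in LCDD and 8.61, 10.3, 5.41, 5.59 and 3.77 CPM in WT, a rise of 2.14 (SE 0.39, adjusted p = 0.0121). Cyr61 and Ctgf, further known targets of YAP and TAZ, were not called, at 1.30 (SE 0.33, adjusted p = 0.0683) and 0.87 (SE 0.23, adjusted p = 0.0778).

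Tead2 lies on chromosome 7, from 45215753 to 45233635 on GRCm38, and Slc6a16, a transporter family member, starts 7449 bases beyond its end. Slc6a16 was at 1.27, 1.77, 3.501 and 2.37 CPM in LCDD and had at most 3 counts in each WT library, a difference of at least 4.08 (adjusted p = 0.000463). It had 0 counts in each of the 4 DH-LMP2A libraries (adjusted p of LCDD against DH-LMP2A = 0.000750). Cd37, a tetraspanin gene on the other strand between them, was not called, at 1.22 (SE 0.35, adjusted p = 0.123). Slc6a16 and Cd37 were named after their values were seen.

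Cygb (cytoglobin), a haem protein of fibroblasts and pericytes, had one of the smallest p-values. It stood at 95.04, 112.8, 139.1 and 83.7 CPM in LCDD and at 4.37, 5.68, 6.41, 8.23 and 9.86 CPM in WT, a fitted ratio of 15.6. The log2 change was 3.96 (SE 0.25, adjusted p = 3.91e-06) and 3.92 with the block (adjusted p = 9.9e-05), and Cygb kept its call under each alternative run. Against DH-LMP2A, at 14.3 ± 3.22 CPM (SD, n = 4), the difference was 2.91 (adjusted p = 0.000112). Cygb lies on chromosome 11, from 116645595 to 116654313 on GRCm38, and overlaps Gm11744 on the opposite strand by 780 bases.

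The genes named near it moved in the same direction, and the other genes of the interval are not all given here. Gm11744 rose by 3.69 (SE 0.39, adjusted p = 0.000325), and since the strand setting of the counting is not given in the sources used here, reads of Gm11744 and Cygb in the overlap cannot be told apart. St6galnac2, a sialyltransferase gene on chromosome 11 that starts at 116675303, was at 99.5, 77.01, 150.5 and 80.7 CPM in LCDD and 33.4, 9.64, 11.01, 11.7 and 14.5 CPM in WT, without overlap. Its rise was 2.66 (SE 0.38, adjusted p = 0.00309). The predicted gene 1810032O08Rik, found by its overlap of 497 bases with St6galnac2, was not called, at 1.095 (adjusted p = 0.0578). BC018473, a transcript at 116752167 to 116759373 of the same chromosome, was at 12.5, 8.85, 13.3 and 9.702 CPM in LCDD. It had at most 3 counts in each WT library, so its LCDD level was at least 6.39 higher on the log2 scale, taken against a floor of 3 counts per library (adjusted p = 1.34e-05). Gm11744 and St6galnac2 were named after their values were seen.

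The smallest p-value among the genes named was that of Ftl2-ps, a pseudogene of the ferritin light chain. It had 2902, 2886, 2031 and 2881 counts in LCDD and 2, 2, 2, 2 and 0 counts in WT. Against the floor of 3 counts per library the LCDD level was at least 9.72 higher on the log2 scale (adjusted p = 7.15e-09). Ftl2-ps lies on chromosome 4, from 125504288 to 125504839, inside the span of Grik3, and overlaps the hairpin of the microRNA gene Mir692-2 by 91 bases. Mir692-2 and its near copy Mir692-1 on chromosome 17 share 1 mature sequence. The hairpins follow, from RefSeq on GRCm38.p6, with the mature miR-692 in capitals, because reads of these genes may not be separable.
Mir692-2: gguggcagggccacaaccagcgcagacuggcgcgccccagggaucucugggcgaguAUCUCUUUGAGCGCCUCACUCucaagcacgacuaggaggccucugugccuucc
Mir692-1: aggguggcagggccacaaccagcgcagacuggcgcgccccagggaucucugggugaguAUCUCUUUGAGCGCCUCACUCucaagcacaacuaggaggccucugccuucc
The mature sequence, with its seed (bases 2 to 8) in capitals, is as follows.
miR-692: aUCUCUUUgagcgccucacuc
In an ungapped alignment 99 of 107 compared bases of the hairpins are identical (92.5%). The Mir692-2 hairpin shares an identical run of 91 bases with the Ftl2-ps transcript and of 59 with Ftl1, a ferritin light chain gene, and the Mir692-1 hairpin shares runs of 53 and 35.

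Both microRNA genes were counted high in LCDD. Mir692-1 was at 7.67, 7.302, 8.995 and 6.59 CPM in LCDD and had at most 3 counts in each WT library, a difference of at least 5.86 (adjusted p = 7.34e-05). Mir692-2 was at 14.3, 26.4, 25.2 and 27.1 CPM in LCDD and 2.36, 3.65, 1.76, 1.97 and 2.23 CPM in WT, a rise of 3.28 (SE 0.37, adjusted p = 0.000562). With such shared sequence and overlap, the counting could have divided reads among the pseudogene, the ferritin gene and the hairpins, so the values of these genes are uncertain, and mRNA libraries do not measure mature microRNAs. Mir692-2 was named after its values were seen.

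Extracellular matrix genes changed in a few members. Of 28 tested genes for fibrillar and related collagens and their processing, 2 rose and 0 fell, against 1.3% and 0.544% of all genes, with a median of 0.35. With the block 5 rose, against 2.05%. Col8a1, a short-chain collagen of vessel walls, was at 192.1, 72.3, 73.7 and 136.3 CPM in LCDD and at 38.6, 31.7, 37.0, 30.6 and 30.8 CPM in WT, a rise of 1.81 (SE 0.26, adjusted p = 0.00304). Col5a2, a chain of collagen V, which helps to set the width of collagen fibrils, was at 160.0, 92.7, 82.6 and 135.2 CPM in LCDD and 59.3, 27.7, 29.5, 27.4 and 32.5 CPM in WT, a rise of 1.74 (SE 0.25, adjusted p = 0.00327). Neither gene overlapped between the groups, and both were higher than in DH-LMP2A, Col8a1 by 1.67 (adjusted p = 0.00851) and Col5a2 by 1.33 (adjusted p = 0.0233).

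The chief interstitial collagens were not called. Col1a1 was at 2.11, 0.678, 0.7002 and 0.473 CPM in LCDD and 1.13, 0.927, 0.921, 1.03 and 1.298 CPM in WT, with a value of -0.10 (SE 0.47, adjusted p = 0.977). Col3a1 had a value of 0.47 (SE 0.51, adjusted p = 0.839), and LCDD replicate 1 was its highest library at 4.76 CPM. Fn1 (fibronectin) averaged 20.7 ± 8.69 CPM (SD, n = 4) in LCDD, while WT averaged 12.1 ± 3.94 CPM (SD, n = 5), with a value of 0.78 (SE 0.28, adjusted p = 0.226).

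Among 31 matricellular proteins and proteoglycans, 1 rose and 2 fell, against 1.3% and 0.544% of all genes, with a median of 0.36. Tnc (tenascin C), a matrix glycoprotein known from remodelling tissue, was at 329.3, 91.4, 78.9 and 123.4 CPM in LCDD and 34.5, 72.03, 32.4, 37.8 and 28.2 CPM in WT. LCDD replicate 1 was far above the others. The rise of 1.93 (SE 0.41, adjusted p = 0.0299) was not called with the block, at 1.82 (adjusted p = 0.0588), or without any 1 of LCDD replicate 1 or 4 or WT replicate 1, 3, 4 or 5. Under code NS171018 the log2 difference was 0.13. Tnc was higher in LCDD than in DH-LMP2A, by 2.43 (adjusted p = 0.0164).

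Fbln5 (fibulin 5), which helps to assemble elastic fibres, was at 37.5, 26.4, 38.6 and 20.7 CPM in LCDD and at 49.4, 73.7, 53.9, 54.3 and 56.7 CPM in WT, without overlap. It fell by 0.90 on the log2 scale (SE 0.18, adjusted p = 0.0198), a call lost without WT replicate 5. Sparcl1, an anti-adhesive matrix protein of vessel walls, fell by 1.52 on the log2 scale (SE 0.34, adjusted p = 0.0365), which was lost without any 1 of LCDD replicate 1, 2 or 4 or WT replicate 3, 4 or 5. In DH-LMP2A against WT their values were -0.65 (adjusted p = 0.143) and -0.51 (adjusted p = 0.548). Ctgf, a matrix-inducing growth factor, was not called at 0.87 (SE 0.23, adjusted p = 0.0778).

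Of 29 matrix proteases and inhibitors, 1 rose and 0 fell, against 1.3% and 0.544% of all genes, with a median of 0.08. The protease Adamts1 rose by 1.13 (SE 0.25, adjusted p = 0.0342), although its groups overlapped. The call was lost without any 1 of LCDD replicate 1, 2 or 4 or WT replicate 3, 4 or 5.

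The glomerular basement membrane is a sheet of collagen IV, laminin, nidogen and heparan sulphate proteoglycan between podocytes and endothelium. Of 22 tested genes on the list for this membrane, 1 rose and 1 fell, against 1.3% and 0.544% of all genes, with a median of -0.09. Being listed does not place a chain in this membrane, and where Col4a6 is made in these glomeruli was not tested. Col4a6, a collagen IV chain, was at 0.767, 5.57, 2.32 and 1.97 CPM in LCDD and at 13.7, 41.9, 14.2, 19.6 and 13.7 CPM in WT, without overlap, and fell by 2.95 on the log2 scale (SE 0.53, adjusted p = 0.0124). It was at 1.69 ± 0.5204 CPM (SD, n = 4) in DH-LMP2A, and LCDD against DH-LMP2A was 0.65 (adjusted p = 0.677). Nid2 (nidogen 2) rose by 0.75 (SE 0.16, adjusted p = 0.02802), which was lost without any 1 of LCDD replicate 1 or 2 or WT replicate 2, 3, 4 or 5. Col4a3, a chain of the mature membrane, and Col4a1 had values of -0.57 (SE 0.48, adjusted p = 0.768) and 0.18 (SE 0.26, adjusted p = 0.902).

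Podocyte genes had mostly negative values with a wide spread between libraries. In whole glomeruli, fewer cells of a type and less RNA per cell cannot be told apart. Of 38 tested podocyte genes 0 rose and 1 fell (1 and 2 with the block), where 1.3% of all genes rose and 0.544% fell (2.05% and 1.15% with the block). The median of the list was -0.47 and 5 of the values were above 0, against 8658 of the 16738 genes tested. The mean log2 CPM of the list was 6.96, 7.66, 8.83 and 8.61 in LCDD replicates 1 to 4 and 7.88, 8.79, 8.84, 8.93 and 8.55 in WT replicates 1 to 5. LCDD replicates 1 and 2 were lowest, LCDD replicates 3 and 4 lay within the WT range, and the pool of code NS161202 was the lowest WT library. Within codes the difference was -0.92 under NS161202, 0.05 under NS171018 and -0.17 under NS180319.

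The podocyte gene that fell was Ptpro, a receptor tyrosine phosphatase of foot processes. It was at 150.3, 266.9, 443.1 and 445.1 CPM in LCDD and at 574.2, 1548, 1710, 1922 and 1374 CPM in WT, without overlap. The change was -2.13 (SE 0.41, adjusted p = 0.0176), and -1.91 with the block (adjusted p = 9.9e-05), with differences of -1.93, -1.80 and -1.89 within codes NS161202, NS171018 and NS180319. Ptpro was at 384.6 ± 132.1 CPM (SD, n = 4) in DH-LMP2A, and LCDD against DH-LMP2A was -0.24 (adjusted p = 0.8602). The call was lost without LCDD replicate 2 or WT replicate 4. The slit diaphragm gene Nphs1 (nephrin) had a value of -0.64 (SE 0.51, adjusted p = 0.746), and Wt1, a podocyte transcription factor, of -0.51 (SE 0.43, adjusted p = 0.761).

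Of 31 mesangial and pericyte genes, 1 rose and 0 fell, against 1.3% and 0.544% of all genes, with a median of 0.25. With the block 4 rose and 0 fell, against 2.05% and 1.15%. Ptn (pleiotrophin), a heparin-binding growth factor, was at 1074, 699.3, 413.6 and 714.7 CPM in LCDD and at 322.5, 288.9, 342.9, 352.3 and 359.9 CPM in WT, without overlap. It rose by 1.12 (SE 0.22, adjusted p = 0.0191), and lost the call without any 1 of LCDD replicate 2 or WT replicate 3, 4 or 5. Pdgfrb, a receptor of mesangial cells, and Acta2 (smooth muscle actin) had values of -0.09 (SE 0.19, adjusted p = 0.937) and -0.21 (SE 0.26, adjusted p = 0.874). The summed CPM of 6 mesangial markers, Pdgfrb and Acta2 among them, ran from 3305 to 6157 in LCDD and from 2604 to 3339 in WT. Of the 5 markers tested, 3 had values above 0 and 0 were called. Lists of endothelial genes (36 tested, median -0.05) and parietal epithelial genes (19 tested, median 0.11) had 0 calls by edgeR in either direction, with 5 and 2 members at an unadjusted p under 0.05 and 1 and 0 calls by DESeq2. Pecam1, an adhesion molecule, and Kdr, the VEGF receptor of the endothelium, had values of -0.27 (SE 0.34, adjusted p = 0.865) and -0.35 (SE 0.42, adjusted p = 0.8597).

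Cxcl13, the chemokine that draws B cells, was the one call among 27 chemokine, cytokine and NF-kB genes, where 1.84% of all genes were called. It was at 707.4, 328.1, 92.9 and 233.6 CPM in LCDD and at 5.79, 24.7, 27.03, 32.4 and 27.7 CPM in WT, so that the lowest LCDD library lay above the highest WT library. The rise was 3.86 (SE 0.59, adjusted p = 0.00516), and 3.51 with the block (adjusted p = 0.0165). Within codes NS161202, NS171018 and NS180319 the log2 difference was 6.91, 1.91 and 3.01. DH-LMP2A had 25.6 ± 13.4 CPM (SD, n = 4), and LCDD exceeded it by 3.73 (adjusted p = 0.0109).

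Without the block no member of the lymphocyte and myeloid gene lists was called, while immunoglobulin and plasma cell genes are given further below. The summed CPM of 4 T and B lymphocyte markers ran from 3.46 to 5.68 in LCDD and from 2.69 to 28.5 in WT, and that of 4 macrophage markers from 17.2 to 34.1 in LCDD and from 18.2 to 105.5 in WT. None of 32 myeloid, 23 lymphoid, 23 MHC class I or 10 MHC class II genes was called by edgeR, with 1, 5, 2 and 0 at an unadjusted p under 0.05 and 0, 0, 0 and 0 called by DESeq2. With the block Cr2, a complement receptor of B cells, was called lower, at -2.15 (adjusted p = 0.0296). The 42 interferon response genes had 0 calls by edgeR, 2 at an unadjusted p under 0.05 and 1 by DESeq2. Without WT replicate 2, however, 11 of them rose, where 297 genes rose in all. With the block Xaf1, an interferon-induced gene, was called higher, at 1.36 (adjusted p = 0.0267). WT replicate 2 had a mean log2 CPM of 6.12 over the list, against 3.899 to 4.199 in the other WT libraries and 4.39 to 5.49 in LCDD.

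Genes of immunoglobulins and plasma cells were lower in LCDD in a few members. Of 19 tested, 0 rose and 3 fell, against 1.3% and 0.544% of all genes, with a median of -0.56. With the block 4 fell, against 1.15%. Igha, the constant region of the IgA heavy chain, had 3, 7, 2 and 1 counts in LCDD and 270, 188, 883, 1254 and 1042 counts in WT. The change was -7.79 (SE 0.73, adjusted p = 0.000148), and in DH-LMP2A against WT it was -7.34 (adjusted p = 0.000472). Igkc, the constant region of the mouse kappa light chain, was at 9.06, 7.302, 7.43 and 4.69 CPM in LCDD and at 24.04, 75.8, 26.7, 39.2 and 31.4 CPM in WT, a change of -2.47 (SE 0.40, adjusted p = 0.00711). Jchain, which links units of IgA and IgM, fell by 3.07 on the log2 scale (SE 0.60, adjusted p = 0.0195), a call lost without any 1 of LCDD replicate 1 or WT replicate 4 or 5. LCDD against DH-LMP2A was -0.45 (adjusted p = 0.8804) for Igha, 0.50 (adjusted p = 0.665) for Igkc and 0.35 (adjusted p = 0.867) for Jchain.

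The other large falls split by their values in DH-LMP2A. Cldn34c1 (a claudin family member), Nxpe2, Nxpe4 and Pydc3 (a gene of the interferon-inducible Ifi200 family) fell against WT, and were called in DH-LMP2A against WT too. Nxpe4 was at 0.269, 0.452, 0.485 and 0.355 CPM in LCDD and at 21.97, 20.5, 9.73, 10.1 and 11.1 CPM in WT. Its change was -5.23 (SE 0.36, adjusted p = 6.83e-06), and in DH-LMP2A against WT it was -5.21 (adjusted p = 1.77e-05). Cldn34c1 had at most 3 counts in each LCDD library against 3.91 ± 0.669 CPM (SD, n = 5) in WT, a log2 difference of -4.94 against the floor of 3 counts per library, which is the smallest fall these counts allow (adjusted p = 1.53e-05). The changes of Nxpe2 and Pydc3 were -5.58 (SE 0.56, adjusted p = 0.000261) and -3.78 (SE 0.43, adjusted p = 0.000692).

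Cyp26a1, which breaks down retinoic acid, changed by -4.43 (SE 0.79, adjusted p = 0.0114), and Eps8l1, an actin regulator, by -3.86 (SE 0.73, adjusted p = 0.0161). In DH-LMP2A against WT they were at -4.29 (adjusted p = 0.0307) and -3.45 (adjusted p = 0.0494). The Eps8l1 call was lost without LCDD replicate 1 or 4. Igkv1-110, a kappa variable segment, changed by -5.04 (SE 0.88, adjusted p = 0.0103). It had 4, 1, 0 and 0 counts in LCDD, near or under the floor of 3 counts, so the size of this change is uncertain. In DH-LMP2A against WT it was at -4.19 (adjusted p = 0.0402).

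Trim12a, Clec12b and Gdpd2 were lower in LCDD than in both other genotypes. Trim12a, of the tripartite motif family, was at 0.691, 0.188, 0.7002 and 0.552 CPM in LCDD and at 41.8, 57.6, 24.3, 21.1 and 22.1 CPM in WT, without overlap. Its change was -5.97 (SE 0.84, adjusted p = 0.00302), and LCDD against DH-LMP2A was -5.31 (adjusted p = 0.00695). Clec12b, a lectin-like receptor, changed by -3.28 (SE 0.44, adjusted p = 0.00202) and Gdpd2, a glycerophosphodiester phosphodiesterase, by -3.54 (SE 0.52, adjusted p = 0.00414). Their differences from DH-LMP2A were -2.82 (adjusted p = 0.00695) and -2.44 (adjusted p = 0.0304).

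Of the 12 largest rises 6 were on the list of kidney genes higher in males. Of 13 listed genes of this kind 6 rose, against 1.3% of all genes (10 with the block, against 2.05%), with a median of 3.43. Cyp2j13, a cytochrome P450, was at 9.75, 14.3, 7.65 and 5.68 CPM in LCDD and at most 0.556 CPM in WT, a rise of 5.73 (SE 0.90, adjusted p = 0.00606). Slco1a1, an organic anion transporter, rose by 6.38 (SE 1.19, adjusted p = 0.0153), which was lost without any 1 of WT replicate 3, 4 or 5. Slc7a13, an amino acid transporter, rose by 5.63 (SE 1.06, adjusted p = 0.0161), which was lost without WT replicate 5, and Ugt2b38, a glucuronosyltransferase, by 4.91 (SE 0.81, adjusted p = 0.00746). Acsm3 and Cyp4a12a rose by 4.92 (adjusted p = 0.0108) and 4.54 (adjusted p = 0.00727). Outside the list, 2 more of the largest rises were a glucuronosyltransferase and a cytochrome P450. Ugt2b37 rose by 5.25 (adjusted p = 0.0132), lost without WT replicate 3, and Cyp2d9 by 3.95 (adjusted p = 0.0205), lost without any 1 of LCDD replicate 2 or WT replicate 3, 4 or 5. All 8 genes, the 6 on the list and these 2, had a higher mean in DH-LMP2A than in LCDD, where Slco1a1 was at 18.95 ± 19.9 CPM (SD, n = 4) in DH-LMP2A and 6.47 ± 2.69 CPM (SD, n = 4) in LCDD. None of them was called in LCDD against DH-LMP2A (adjusted p = 0.239 to 0.818). In DH-LMP2A against WT all 8 were called higher (adjusted p = 0.0026 to 0.0274).

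Y-linked transcripts and tubule content both vary beside these genes. None of the 8 was called without the 3 single-mouse WT libraries or with the Y-linked log2 level as a covariate. Their log2 fold changes were 3.12 to 4.98 without those libraries and 3.12 to 5.94 with the covariate, against 3.95 to 6.38 with all libraries. Cyp2j13 and Ugt2b38 stayed called with the linear Y-linked covariate (adjusted p = 0.0337 and 0.0432). They also stayed called without LCDD replicates 1 and 3 (adjusted p = 0.0439 and 0.0409). The rest of the 8 were called in neither of these fits. The 30 proximal tubule genes had 0 calls by edgeR, 1 at an unadjusted p under 0.05, 1 by DESeq2 and a median of 0.27, with a mean log2 CPM of 4.52 to 6.41 in LCDD and 2.203 to 7.07 in WT. With the block Kap, which is also on the list of genes higher in males, was called higher, at 2.42 (adjusted p = 0.0455). Lrp2 (megalin), the tubule's receptor for filtered proteins, had a value of 0.17 (SE 0.99, adjusted p = 0.9804), and Umod (uromodulin), of the loop of Henle, of 0.34 (SE 0.68, adjusted p = 0.937). Ddx3y, a Y-linked gene, was at 84.95, 11.1, 100.2 and 8.204 CPM in LCDD and at 0, 12.2, 0.04004, 0 and 0 CPM in WT. It and the other 3 Y-linked genes were not called with all libraries, and all 4 were called higher without WT replicate 2.

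Tspan11, a tetraspanin, was at 1.69, 2.07, 13.4 and 6.39 CPM in LCDD and 0.227, 0.185, 0.3203, 0.403 and 0.6895 CPM in WT. The LCDD values differed widely, with replicates 3 and 4 the highest, and none overlapped WT. The rise was 3.98 (SE 0.61, adjusted p = 0.00503), and LCDD exceeded DH-LMP2A by 2.77 (adjusted p = 0.0386).

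Growth factor and stress lists gave few calls. Of 32 TGF-beta and BMP genes 1 rose and 0 fell, against 1.3% and 0.544% of all genes. Bmp4, a secreted BMP ligand, rose by 0.86 (SE 0.17, adjusted p = 0.0185), which was lost without WT replicate 4 or 5. Tgfb1 and Pdgfb, which are known to drive matrix production and mesangial growth, had values of 0.19 (SE 0.24, adjusted p = 0.872) and 0.24 (SE 0.17, adjusted p = 0.702). Of 30 genes of the endoplasmic reticulum stress response, which cells mount against misfolded proteins, 1 rose, against 1.3% of all genes. With the block 4 rose, against 2.05%. Asns, the asparagine synthetase gene, rose by 1.15 (SE 0.26, adjusted p = 0.04499), with an adjusted p of 0.07501 under the block and no call without any 1 of LCDD replicate 1, 2 or 3 or WT replicate 2, 3, 4 or 5. Hspa5 (BiP), the main chaperone of that compartment, was at 0.47 (SE 0.26, adjusted p = 0.543) without the block and was called at 0.74 with the block (adjusted p = 0.0199).

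No call was made by edgeR among 29 PDGF, VEGF and angiopoietin genes, 29 complement and coagulation genes, 14 renin-angiotensin genes, 33 lysosome and autophagy genes, 26 immediate early and heat shock genes or 27 oxidative phosphorylation genes. At an unadjusted p under 0.05 these lists held 5, 5, 3, 1, 4 and 0 genes, and DESeq2 called 1, 1, 0, 1, 0 and 0. With the block, Glb1, the lysosomal beta-galactosidase, was called lower at -0.81 (adjusted p = 0.00848) and the heat shock chaperones Hsp90aa1 and Hsph1 were called higher at 0.85 (adjusted p = 0.0119) and 0.84 (adjusted p = 0.01998). No call was made by edgeR either among 30 genes of the loop, distal tubule and collecting duct, 12 tubular injury genes, 5 X-linked genes higher with an inactive X, 8 kidney genes higher in females or 6 red blood cell genes. These lists held 0, 1, 0, 1 and 0 genes at an unadjusted p under 0.05, and DESeq2 called 0, 0, 0, 1 and 0. With the block Cyp2a4, on the list of genes higher in females, was called higher in LCDD, at 3.16 (adjusted p = 0.0274). Leaving out WT replicate 2 gave 2 rises among the complement and coagulation genes, where 297 genes rose in all.

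Of the 138 genes named by rule or after their values were seen, 62 were called. Leaving out each library in turn kept the call of 43 of these 62. The 10 that stayed called under every alternative that gave a value were BC018473, Cldn34c1, Cygb, Ftl2-ps, Igha, Mir692-1, Nxpe2, Nxpe4, Pydc3 and Tead2. Of these, BC018473, Cygb, Ftl2-ps, Mir692-1 and Tead2 were called against DH-LMP2A as well, and the other 5 were not.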

How the data were processed

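Glomerular mRNA was sequenced in 13 libraries, of which 4 LCDD and 5 WT libraries are compared. The deposited file holds raw counts of reads per gene. Per the submitters' processing notes the tools were STAR 2.4.0a, featureCounts, Subread 1.5.0-p3 and DESeq2, on mm10/GRCm38. The annotation, strand setting and treatment of multi-mapping reads are not given in the sources used here. Per the labels' protocols, libraries were made with a stranded mRNA kit and sequenced paired-end.

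Counts were filtered with filterByExpr (minimum count 10), which kept 16738 of 46958 genes and at least 99.93% of the counts, scaled by TMM and fitted in edgeR 4.0.16 (R 4.3.3) by its quasi-likelihood test over all 13 libraries, with genotype as the only term. Log2 CPM used a prior count of 2, and 3 counts, the floor, equal 0.0971 to 0.185 CPM over the 9 libraries, for counting error only. Multiple testing was handled with Benjamini-Hochberg adjusted p-values across those 16738 genes. The title code was added as a block in an alternative fit. Deviations of LCDD and WT libraries of the same code from their genotype means correlated across genes at 0.400, 0.127 and 0.304 for codes NS161202, NS171018 and NS180319, so the code is taken to pair the libraries. In these 3 pairs, 2 LCDD libraries correlated best with their own code. The genotype-only fit, which gave the 308 calls and the values quoted without the block, does not use this pairing. Other alternatives were DESeq2 1.42.0, RLE scaling, filters, leaving out libraries, and Y-linked and tubule covariates. The fit was tested on simulated data. Of genes changed 1.5, 2 and 4 times in LCDD it called 1.43%, 35.3% and 69.4%, and it called 2 unchanged genes. A gene that was not called may therefore still differ. Same-genotype pairs of libraries differed by chi-square per degree of freedom of 12.55 to 233.9 over genes with at least 20 counts.

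The genes named are the 12 largest rises and 12 largest falls that were called without and with the block and averaged 1 CPM or more over the 9 libraries (predicted genes left out), in each of the 34 gene lists up to 4 called members of smallest p or, with none called, the 2 of smallest p, a fixed set of genes and 3 transcripts described earlier, and 19 further genes chosen after their values were seen. Further, 2 genes were left out of the lists, marker sums and named genes and are not reported here. The lists and the comparison itself were chosen with earlier results of these data known. Promoters and microRNAs come from RefSeq tables on GRCm38.p6.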

Additional observations from a re-analysis of the deposited data

Results flagged for a closer look

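For each named gene, and for the total counts, the highest and lowest library of each genotype were compared with the others of that genotype, and a library was listed where its gap took more of the whole range than Dixon's 95% limit. Of 278 groups of values checked, 35 had such a library, where chance gives about 1 in 20, or 13.9. The total count of LCDD replicate 3, 18604929, lay below the others, at 25276687 to 26544422. The remaining values are log2 CPM, with a prior count of 2. LCDD replicate 1 stood apart for Edn1 at 5.72 (others 4.06 to 4.23), Pdgfrb at 9.05 (others 9.47 to 9.52), Cldn1 at 5.52 (others 3.37 to 3.66), Col3a1 at 2.28 (others -0.01 to 0.19) and Ighm at 3.97 (others 2.6 to 2.79). It also stood apart for Mir692-2 at 3.85 (others 4.66 to 4.76), Kif22 at 2.97 (others 1.73 to 1.81), Plk1 at 2.01 (others 1.26 to 1.38) and Cyr61 at 7.59 (others 6.43 to 6.52). LCDD replicate 2 stood apart for Cldn34c1 at -3.04 (others -3.57), which rests on 1 count, and Lcn2 at 0.45 (others -1.35 to -1.06). LCDD replicate 3 stood apart for Slc7a13 at 2.08 (others 3.24 to 3.4), Hbb-bt at 5.4 (others 3.88 to 4.11) and Hba-a1 at 8.83 (others 6.92 to 7.25). LCDD replicate 4 stood apart for Jchain at -2.3 (others 0.21 to 0.67). WT replicate 1 stood apart for Cldn34c1 at 2.37 (others 1.8 to 1.94), Nxpe2 at 3.6 (others 2.7 to 2.95), Jchain at 1.15 (others 2.99 to 3.72), Col5a2 at 5.89 (others 4.78 to 5.03) and Ptpro at 9.17 (others 10.42 to 10.91). It also stood apart for Ly6c2 at 2.69 (others 5.02 to 5.34), Cr2 at 2.03 (others -0.91 to -0.24), Cxcl13 at 2.55 (others 4.63 to 5.02), Fn1 at 4.25 (others 3.25 to 3.51) and Pttg1 at 0.71 (others 4.43 to 5.76). It also stood apart for Slc6a16 at -3.1 (others -3.57), which rests on 1 count and, like Cldn34c1 in LCDD replicate 2, lies under the floor of 3 counts. WT replicate 2 stood apart for Slco1a1 at -0.79 (others -3.57), Xaf1 at 6.51 (others 4.55 to 4.81), Ddx58 at 6.7 (others 6.08 to 6.19), C1s1 at 7.87 (others 7.1 to 7.31) and Uty at 1.49 (others -3.57). It also stood apart for Eif2s3y at 2.63 (others -3.57 to -2.6), Ddx3y at 3.62 (others -3.57 to -3.01) and Kif20b at -0.39 (others 1.38 to 2.06). 

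LCDD replicate 1 was the highest for the mitosis genes Kif22 and Plk1 and for Col3a1, a fibrillar collagen. WT replicate 1 was the lowest of its genotype for Cxcl13, Ptpro and Pttg1 and the highest for Col5a2 and Fn1. WT replicate 2 was the highest of its genotype for Y-linked genes and for the interferon genes Xaf1 and Ddx58. Their part in the results was not tested beyond leaving each library out.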

How the results depend on the processing

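The 308 calls (217 higher, 91 lower) moved by over 1.5 times, in all or in 1 direction, under the following settings. With DESeq2, 742 genes were called, 433 higher and 309 lower. With only genes of at least 5 CPM on average, 116 genes were called, 75 higher and 41 lower. With only the LCDD and WT libraries fitted, 185 genes were called, 127 higher and 58 lower. With the title code as replicate block, 536 genes were called, 343 higher and 193 lower. Without the 3 single-mouse WT libraries, 54 genes were called, 28 higher and 26 lower. With the Y-linked log2 covariate, 23 genes were called, 9 higher and 14 lower. With the Y-linked linear covariate, 60 genes were called, 44 higher and 16 lower. Without LCDD replicates 1 and 3, 77 genes were called, 58 higher and 19 lower. Leaving out 1 of the 9 libraries at a time gave 159 to 441 calls, 112 to 297 higher and 44 to 152 lower, with the fewest without a single-mouse WT library. The replicate block in the LCDD and WT libraries only moved each count by less than 1.5 times. There 243 genes were called, 151 higher and 92 lower. The share called higher was 70.5% in the genotype-only fit, 58.4% with DESeq2, 51.9% without the single-mouse libraries and 39.1% with the Y-linked log2 covariate. The causes were not tested. The linear Y-linked covariate and the fit without LCDD replicates 1 and 3 were added after seeing the data. Of the 62 called named genes none changed sign under any alternative, and 59 stayed called with the block, which ended the calls of Tnc, Asns and Pttg1. Of the 76 named genes not called, 22 changed sign under at least 1 alternative. With the Y-linked log2 covariate, the log2 fold change was of opposite sign for Calb1 0.55, Ddx58 -0.0127, Masp2 0.57, Eif2s3y -0.0632, Kdm6a 0.59, Eif2s3x 0.36, Hbb-bt 0.27, Hba-a1 0.67, Col3a1 -0.88, Col4a1 -0.32 and Xist 0.46. Without the 3 single-mouse WT libraries, the log2 fold change was of opposite sign for Masp2 0.54, Ndufb5 -0.0615, Tgfb1 -0.0854, Lrp2 -1.0003, Umod -0.52 and Havcr1 -0.51. With the proximal tubule covariate, the log2 fold change was of opposite sign for Ndufb5 -0.0254, Pdgfrb 0.0099, Acta2 0.0064, Tgfb1 -0.10, Umod -0.17 and Havcr1 -0.76. With DESeq2, the log2 fold change was of opposite sign for Cdkn1b -0.0044. With RLE size factors, the log2 fold change was of opposite sign for Cdkn1b -0.0052. With no filter on low counts, the log2 fold change was of opposite sign for Cdkn1b -0.008. Without LCDD replicates 1 and 3, the log2 fold change was of opposite sign for Cdkn1b -0.024, Col3a1 -0.51 and Col4a1 -0.0068. With the Y-linked linear covariate, the log2 fold change was of opposite sign for Col3a1 -0.45, Xist 0.26 and Kif18a -0.0644. With the title code as replicate block, the log2 fold change was of opposite sign for Col4a1 -0.0227, Tgfb1 -0.0612 and Havcr1 -0.50. With the replicate block in the LCDD and WT libraries only, the log2 fold change was of opposite sign for Col4a1 -0.0529, Tgfb1 -0.0985, Umod -0.28 and Havcr1 -0.31. Over the left-out libraries the value ran, for Cdkn1b from -0.0639 to 0.0468, Pdgfrb from -0.20 to 0.0051, Col1a1 from -0.79 to 0.14, Col3a1 from -0.51 to 0.70, Col4a1 from -0.0683 to 0.33, Tgfb1 from -0.0754 to 0.34, Lrp2 from -0.32 to 2.43, Umod from -0.19 to 1.30, Havcr1 from -0.24 to 1.60, Cd68 from -0.35 to 0.42 and Kif18a from -0.15 to 0.15.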
